A study of Mus musculus with 6 samples.

Results

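Krüppel-like factors are transcription factors that bind GC-rich DNA through zinc fingers at their C-terminal end. The genes described here are 9 members of the family measured in mouse embryonic stem cells: Klf2, Klf3, Klf4, Klf5, Klf6, Klf7, Klf9, Klf10 and Klf13. They were taken as every probe set that the platform annotation assigns to exactly 1 of these symbols. This gave 33 probe sets out of 34958 with a single gene symbol, and 9 genes out of 18194. Klf2 and Klf10 had 1 probe set each, Klf4 had 2, Klf5 and Klf13 had 3, Klf7 had 4, Klf6 had 5, and Klf3 and Klf9 had 7.

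The cells were E14Tg2a, an established mouse embryonic stem cell line, sampled at 96 h on Affymetrix arrays of total RNA. All 3 groups were transfected with a small interfering RNA and held 2 arrays each. Control cells received a duplex against firefly luciferase, a gene mouse cells do not have, and the others received Ncl siRNA #1 or Ncl siRNA #2, which are different duplexes against the transcript of nucleolin. A single cell line was used, and the labels do not say whether replicates were separate cultures, so the spread behind each p-value may be technical. Values are the authors' log2 probe set values, a log2 change is a difference between group means, and a gene was called when its limma adjusted p, by Benjamini-Hochberg over all genes, was under 0.05. SE is the standard error of a change.

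In embryonic stem cells, Klf2, Klf4 and Klf5 belong to the circuit that holds the naive pluripotent state, where they bind many of the same regulatory regions as Oct4, Sox2 and Nanog and can partly replace each other. Klf4 lies downstream of LIF and STAT3 signalling, and KLF2 protein is lowered by MEK and ERK signalling. The family falls into groups by partner proteins: Klf2, Klf4, Klf5, Klf6 and Klf7 act mainly as activators, Klf9, Klf10 and Klf13 recruit the Sin3 corepressor, and Klf3 recruits the corepressor CtBP.

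Ncl itself fell by 0.46 with each siRNA on its brightest probe set (SE 0.04 for each), and its fall in the mean of both was 0.96 when all its probe sets were averaged, so the size depends on the probe set. The stem cell label was checked on 10 of its markers, whose summed log2 level stood at 16.36 and 16.35 under control siRNA, at 16.14 and 16.12 under siRNA #1, and at 15.94 and 15.93 under siRNA #2. Of these markers 8 were lower and 1 higher in the mean of both siRNAs, and 9 were lower with siRNA #2 than with siRNA #1. The second count depends on scaling. After centring each array on housekeeping genes, 2 of the 10 were lower with siRNA #2, and their median difference went from -0.24 to -0.13. Over all genes, 21.7% were lower and 20.3% higher in the mean of both, and 6.18% were lower with siRNA #2 than with siRNA #1. The control arrays also stood apart from all 4 Ncl siRNA arrays in genes of other tissues. Markers of airway secretory cells, summed over 8 genes, read 13.20 and 13.23 in the control arrays and 7.82 to 8.12 in the others, with 7 of 8 genes lower and 3 of 8 below the lower quartile of the array in each Ncl siRNA group. Of 8 heart muscle markers 7 were lower, of 9 measured alveolar markers 6 were lower and 1 higher, of 8 fibroblast markers 4 were lower, and of 8 leukocyte markers 2 were lower and 2 higher. Of 10 endothelial markers 5 were lower and 2 higher, and their summed level was 9.98 and 10.09 in the controls against 9.80 to 10.09. Poly-A control transcripts averaged 7.66 in the control group, 8.71 with siRNA #1 and 8.42 with siRNA #2. The 3′ probe set of Actb exceeded the 5′ one, which reads RNA integrity, by 0.48, 0.26 and 0.23 in the same order, while the same difference of Gapdh was -0.03, -0.01 and 0.01. Probe sets of 18S ribosomal RNA averaged 12.10, 13.08 and 13.11, and hybridisation controls 12.03, 11.23 and 11.16. Both control arrays share these features, so no control array without them could be used, and their part in any change against control reported here was not tested. Between siRNA #2 and siRNA #1, limma called 0 of the 8 airway markers, and 1 had an unadjusted p under 0.05. The other tissue lists were not all free of calls between the siRNAs. With siRNA #2, 1 alveolar marker was higher and 1 lower of 9, and 1 endothelial marker was higher of 10. Of 8 heart muscle markers 1 was lower, of 8 fibroblast markers 1 was lower, and of 8 leukocyte markers 0 were called. Over all genes, 2.3% were higher and 6.18% lower.

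The first question was which family members changed when Ncl was targeted. Klf6 and Klf7 rose the most, Klf10, Klf5 and Klf9 rose by less, Klf2, Klf4 and Klf13 fell, and Klf3 was not called on its brightest probe set. With siRNA #1 against control, 5 of 9 members rose and 3 fell, where 20.2% of all genes rose and 17.3% fell. With siRNA #2, again 5 rose and 3 fell, where 17.7% of all genes rose and 21.7% fell. In the mean of both siRNAs against control the same 5 and 3 members were called, beside 20.3% of all genes higher and 21.7% lower. With siRNA #2, centring each array on its median gave 4 members higher and 3 lower, as Klf9 was no longer called (0.08, limma adjusted p = 0.247). After centring on housekeeping genes the split of the members was 5 and 3 with each siRNA, while the share of higher genes among all genes called went from 45% to 61.4% with siRNA #2 and from 48.4% to 59% in the mean of both. The 8 housekeeping genes measured were not all stable themselves. In the mean of both siRNAs 2 of them rose and 3 fell, and 1 was lower with siRNA #2 than with siRNA #1, by 0.46, so this scaling carries their changes. The comparisons share the control arrays and are not independent of each other. In all 9 members, the 4 Ncl siRNA arrays lay beyond both control arrays on the brightest probe set, 5 above and 4 below, while 50.2% of all genes separated in this way. That share includes dim genes and was not computed for genes as bright as these members. Of the 8 housekeeping genes measured, all but Polr2a separated in this way too, so the separation is not particular to the Klf genes. The median change of the members in the mean of both siRNAs was 0.17, beside -0.05 over all genes. In bulk RNA, fewer cells of a type and less RNA per cell cannot be told apart.

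**Figure D1:**
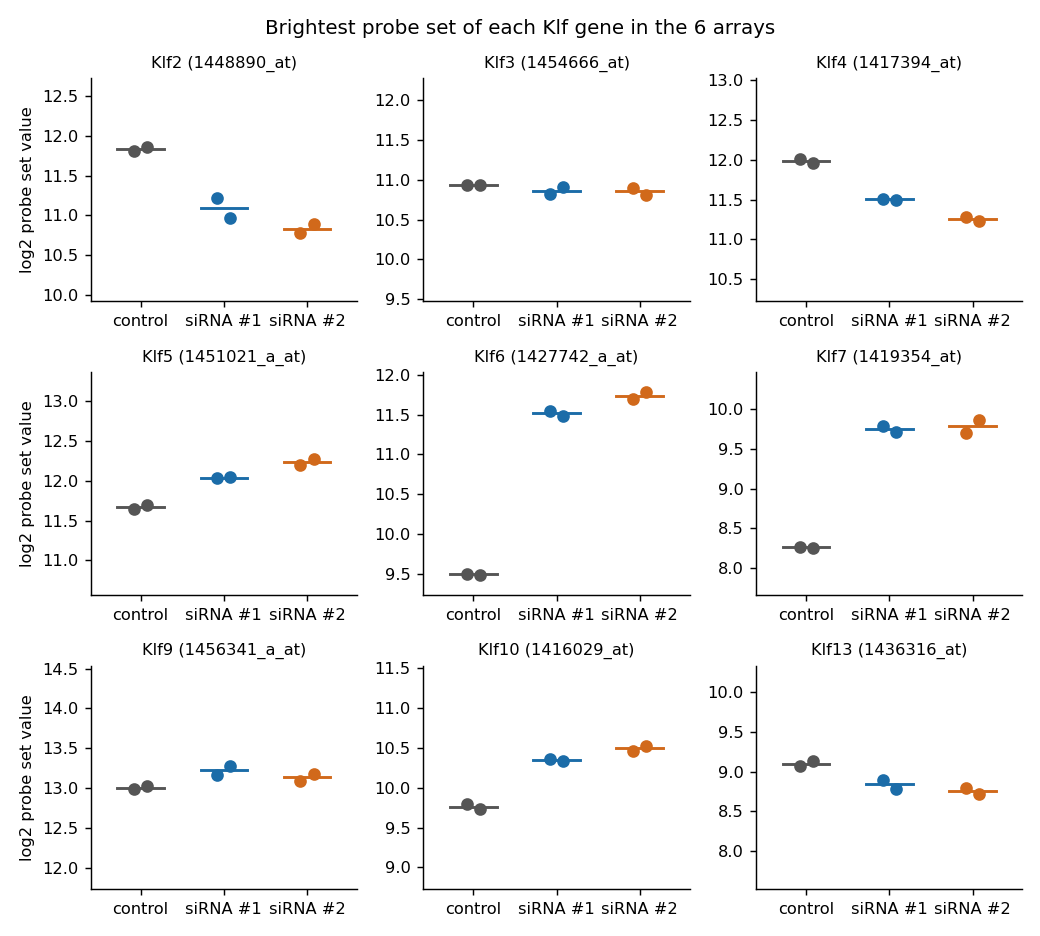
Log2 value of the brightest probe set of each of the 9 Klf genes (vertical axes, of equal span but different position) in the control siRNA, Ncl siRNA #1 and Ncl siRNA #2 arrays; points are single arrays and lines are the means of 2 arrays. The 4 Ncl siRNA points lie above both control points for Klf5, Klf6, Klf7, Klf9 and Klf10 and below both for Klf2, Klf3, Klf4 and Klf13.

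Promoter sequence was read for the members that fell and rose most clearly, to show what DNA lies just before their start sites. RefSeq (GRCm38.p6) gave a promoter window for 7 of the 9 members, Klf5 and Klf10 being unmatched. The 250 bases before the start are printed for Klf2 and Klf4, which fell, and for Klf6 and Klf7, which rose. Capitals mark each GC box, GGGCGG on either strand, the short motif that Sp and Krüppel-like factors can bind. The windows are chr8:72318812-72319061 on the plus strand for Klf2, chr4:55532476-55532725 on the minus strand for Klf4, chr13:5861239-5861488 on the plus strand for Klf6 and chr1:64121390-64121639 on the minus strand for Klf7, whose start lies inside the annotated extent of the gene.
Klf2: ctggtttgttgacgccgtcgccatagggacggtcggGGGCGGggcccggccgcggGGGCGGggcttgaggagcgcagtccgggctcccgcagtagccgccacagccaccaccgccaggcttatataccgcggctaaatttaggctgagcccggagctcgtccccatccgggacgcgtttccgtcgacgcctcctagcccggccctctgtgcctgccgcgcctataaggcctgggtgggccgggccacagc
Klf4: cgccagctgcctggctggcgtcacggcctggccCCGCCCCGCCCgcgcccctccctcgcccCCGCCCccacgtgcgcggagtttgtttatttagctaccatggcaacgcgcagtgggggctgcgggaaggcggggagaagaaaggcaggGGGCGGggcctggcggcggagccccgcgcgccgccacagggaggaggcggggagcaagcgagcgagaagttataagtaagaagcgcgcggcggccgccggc
Klf6: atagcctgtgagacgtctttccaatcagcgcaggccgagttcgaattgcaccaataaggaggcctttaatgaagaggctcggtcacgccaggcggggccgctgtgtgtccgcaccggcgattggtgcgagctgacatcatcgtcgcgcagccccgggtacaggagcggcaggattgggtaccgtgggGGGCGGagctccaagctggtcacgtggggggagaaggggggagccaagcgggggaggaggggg
Klf7: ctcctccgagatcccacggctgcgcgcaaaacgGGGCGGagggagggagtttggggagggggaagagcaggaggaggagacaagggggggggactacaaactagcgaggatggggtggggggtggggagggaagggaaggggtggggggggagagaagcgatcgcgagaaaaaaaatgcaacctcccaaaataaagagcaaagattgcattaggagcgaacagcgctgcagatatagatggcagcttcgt

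These windows were rich in G and C. Klf4 reached 74% GC and Klf2 71.2%, against 64.8% in Klf6 and 59.2% in Klf7. Among the other members, Klf3 had 78.4%, Klf13 71.6% and Klf9 59.6%, while the median over 32851 mouse promoter windows of the same length was 52.4% (quartiles 45.2% and 61.2%). GC boxes numbered 2 in Klf2, 4 in Klf4 and 1 each in Klf6 and Klf7, 6 in Klf3, 3 in Klf13 and 0 in Klf9. At least 1 was found in 6 of 7 members and in 32.7% of all windows. Each of these 7 windows exceeded the median GC content of all windows, and no motif share was computed over windows of like GC. A looser pattern for the family's binding sites, CCNCNCCC on either strand, which can overlap the GC box, also matched 6 of 7 members, with 9 matches in Klf4, 8 in Klf7, 4 in Klf2 and 2 in Klf6, beside 45.9% of all windows. CCAAT on either strand was found in 3 members, 4 times in Klf6, 3 times in Klf9 and 2 times in Klf13 (33.8% of windows). TATAAA matched none of these 7 windows (12.4% of all), and TTCNNNGAA, the letters of a STAT site, matched Klf9 alone (7.02% of all). All motifs were searched on both strands. Members that rose and members that fell both held GC boxes. These matches describe letters in a window and are not measured binding sites.

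Klf2 and Klf4, both factors of the naive circuit, fell with each siRNA. Klf2, which also controls quiescence of blood vessel endothelium, stood at 11.82 and 11.86 under control siRNA, at 11.22 and 10.97 under siRNA #1 and at 10.78 and 10.89 under siRNA #2. The 3 groups did not overlap, and the control arrays were highest. Its log2 change was -0.75 with siRNA #1 (SE 0.07, limma adjusted p = 2.03e-08) and -1.01 with siRNA #2 (limma adjusted p = 1.48e-10), which left 59.6% and 49.8% of the control signal. In the mean of both siRNAs its change of -0.88 ranked 418 from the lowest among 18194 genes. Endothelial and lung markers also differed between these groups, as given above, and their part in the fall of Klf2 was not tested.

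Klf4, one of the factors used to reprogram somatic cells to pluripotency, stood at 12.02 and 11.96 under control siRNA, at 11.51 and 11.50 under siRNA #1 and at 11.29 and 11.23 under siRNA #2 on its brightest probe set. The groups were again separate, in the same order as for Klf2. It fell by 0.49 with siRNA #1 (SE 0.05, limma adjusted p = 2.18e-07) and by 0.73 with siRNA #2 (limma adjusted p = 3.21e-10), to 71.4% and 60.3% of control. Its other probe set, 1417395_at, is annotated to the same source sequence and read 10.48 and 10.69, then 10.47 and 10.27, then 9.98 and 10.01. There the siRNA #1 arrays lay close under the lower control array, with a change of -0.22 that did not pass (limma adjusted p = 0.0717 over all probe sets), while siRNA #2 gave -0.59 (limma adjusted p = 3.51e-05). Both probe sets of Klf4 therefore pointed downwards, and both passed with siRNA #2.

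Klf5, needed in the early embryo for both the inner cell mass and the trophectoderm, moved the opposite way on its brightest probe set. It stood at 11.65 and 11.70 under control siRNA, at 12.03 and 12.04 under siRNA #1 and at 12.21 and 12.28 under siRNA #2. Here the control arrays were lowest and the siRNA #2 arrays highest. The rise was 0.36 with siRNA #1 (limma adjusted p = 6.23e-06) and 0.57 with siRNA #2 (limma adjusted p = 8.05e-09), or 1.29-fold and 1.48-fold. The 3 Klf5 probe sets did not move together. Probe set 1451739_at stood at 8.27 and 8.07 under control siRNA, at 7.71 and 7.75 under siRNA #1 and at 7.99 and 8.13 under siRNA #2, so that it fell by 0.45 with siRNA #1 (SE 0.11, limma adjusted p = 0.00714) and changed by -0.11 with siRNA #2 (limma adjusted p = 0.550). Probe set 1430255_at lay below the lower quartile of every array, between 3.78 and 4.11, and was not called. When all 3 probe sets were averaged, Klf5 was no longer called, at -0.07 with siRNA #1 (limma adjusted p = 0.585), 0.17 with siRNA #2 (0.141) and 0.05 in the mean of both (0.612), so the rise rests on the brightest probe set. The fall on 1451739_at with siRNA #1 was lost without control replicate 1 (-0.35, limma adjusted p = 0.101).

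Klf6 and Klf7, which are widely expressed activators, Klf6 known as a tumour suppressor and Klf7 for its part in the outgrowth of nerve fibres, showed the largest changes of the 9 genes. Klf6 stood at 9.50 and 9.48 under control siRNA, at 11.55 and 11.48 under siRNA #1 and at 11.70 and 11.78 under siRNA #2. Every Ncl siRNA array lay far above both controls. This was 4.07-fold with siRNA #1 (log2 2.02, SE 0.06, limma adjusted p = 1.06e-16) and 4.74-fold with siRNA #2 (log2 2.25, limma adjusted p = 1.28e-17). In the mean of both siRNAs, its rise of 2.13 was the 162nd highest of 18194 genes. All 5 Klf6 probe sets rose, by 1.48 on 1418280_at, 1.53 on 1459718_x_at, 1.92 on 1447448_s_at, 2.00 on 1433508_at and 2.13 on the brightest. Of these, 1447448_s_at and 1459718_x_at share a source sequence and are not independent readings.

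Klf7 stood at 8.27 and 8.26 under control siRNA, at 9.79 and 9.71 under siRNA #1 and at 9.70 and 9.87 under siRNA #2. The Ncl siRNA arrays were all higher than the controls, and the arrays of the 2 siRNAs overlapped each other. The rise was 2.81-fold with siRNA #1 (log2 1.49, SE 0.08, limma adjusted p = 5.45e-12) and 2.87-fold with siRNA #2 (log2 1.52, limma adjusted p = 3.01e-12), and the rank in the mean of both was 407 from the highest. All 4 Klf7 probe sets, which derive from the same source sequence, rose. The brightest gave the smallest rise, 1.51 in the mean of both siRNAs, and the others gave 1.90 on 1449439_at, 2.00 on 1419356_at and 2.06 on 1419355_at.

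**Figure D2:**
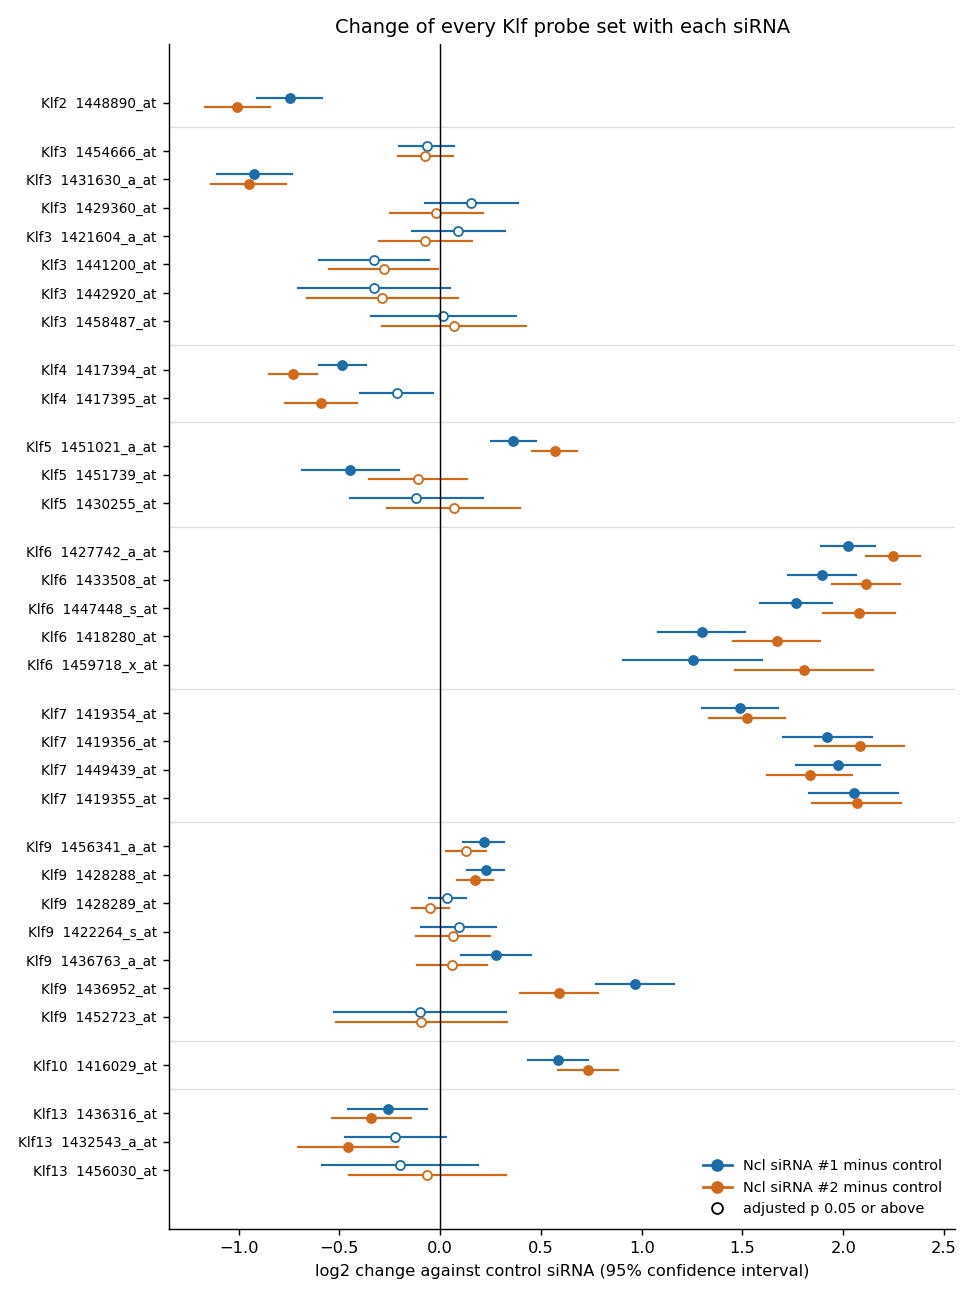
Log2 change against control siRNA (horizontal axis, 95% confidence interval) of all 33 Klf probe sets, ordered by gene and brightness, for Ncl siRNA #1 (blue) and Ncl siRNA #2 (orange); open points have an adjusted p of 0.05 or above over all 45037 probe sets. All 5 Klf6 and all 4 Klf7 probe sets lie right of 0 with both siRNAs, whereas the probe sets of Klf3, Klf5 and Klf9 differ among themselves.

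The members that recruit Sin3 did not share a direction. Klf10, an early gene induced by TGF-beta, stood at 9.79 and 9.73 under control siRNA, at 10.36 and 10.33 under siRNA #1 and at 10.46 and 10.53 under siRNA #2. The groups were separate, with the controls lowest. Klf10 rose by 0.58 with siRNA #1 (SE 0.07, limma adjusted p = 3.97e-07) and by 0.73 with siRNA #2 (limma adjusted p = 1.05e-08), which is 1.50-fold and 1.66-fold on its only probe set.

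Klf9, a gene induced by glucocorticoid and thyroid hormone, gave a small rise on its brightest probe set, from 12.99 and 13.02 in the controls to 13.17 and 13.27 with siRNA #1 and 13.09 and 13.17 with siRNA #2. The lowest Ncl siRNA array lay just above the higher control. The change was 0.22 with siRNA #1 (SE 0.05, limma adjusted p = 0.00102) and 0.13 with siRNA #2 (limma adjusted p = 0.0401), and the second call was not met over all probe sets (0.0565) and was lost without control replicate 1 (0.201), control replicate 2 (0.0929) or siRNA2 replicate 2 (0.363). It was also lost after centring each array on its median (0.247), with the probe sets of a gene averaged (0.147) and with variances fitted without a trend (0.320), where the call with siRNA #1 was lost as well (0.110). Its 7 probe sets ranged in the mean of both siRNAs from -0.10 to 0.78, with 3 higher and 4 not called. The 0.78 belonged to 1436952_at (SE 0.08, limma adjusted p = 6.34e-07 over all probe sets), which stood at 8.30 and 8.35 under control siRNA, at 9.33 and 9.25 under siRNA #1 and at 8.89 and 8.93 under siRNA #2. On that probe set siRNA #1 gave the higher values, with a rise of 0.97 against 0.59, and the difference of -0.38 passed (limma adjusted p = 0.0330) but was lost without siRNA1 replicate 1 (0.101), siRNA2 replicate 1 (0.403) or siRNA2 replicate 2 (0.302). Probe set 1428289_at, between 12.73 and 12.84 in all 6 arrays, changed by -0.01.

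Klf13, which in T cells activates the chemokine gene Ccl5, fell slightly, from 9.07 and 9.13 in the controls to 8.89 and 8.79 with siRNA #1 and 8.80 and 8.72 with siRNA #2. The change was -0.26 with siRNA #1 (SE 0.09, limma adjusted p = 0.0249) and -0.34 with siRNA #2 (limma adjusted p = 0.00361). The siRNA #1 call was lost when any array other than siRNA1 replicate 1 was left out, with limma adjusted p-values up to 0.160, the siRNA #2 call without siRNA2 replicate 2 (0.0767), and the mean of both without control replicate 2 (0.0567). A second probe set, 1432543_a_at, changed by -0.22 with siRNA #1 (limma adjusted p = 0.189) and -0.46 with siRNA #2 (0.00644), and the dim probe set 1456030_at was not called. In the mean of both siRNAs, 1432543_a_at changed by -0.34 (limma adjusted p = 0.0164), a call that was lost without control replicate 1 (0.209) or siRNA2 replicate 1 (0.0716).

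Klf3, the CtBP-binding repressor, was not called on its brightest probe set, which gave 10.93 on both control arrays, 10.82 and 10.91 under siRNA #1 and 10.90 and 10.81 under siRNA #2. In the mean of both siRNAs the change was -0.07, with a 95% confidence interval from -0.18 to 0.04 (limma adjusted p = 0.320). Its second brightest probe set, 1431630_a_at, gave another picture, from 9.90 and 9.95 in the controls to 9.06 and 8.95 with siRNA #1 and 8.90 and 9.05 with siRNA #2. There all 4 Ncl siRNA arrays were well below both controls, and the change was -0.92 with siRNA #1 (SE 0.09, limma adjusted p = 5.07e-07 over all probe sets) and -0.95 with siRNA #2 (2.75e-07). The ending _a_at marks a probe set that matches alternative transcripts of a gene. Klf3 probe set 1421604_a_at, counted below among those not called, has this ending too and changed by 0.01 in the mean of both. Of the other Klf3 probe sets, 1441200_at changed by -0.30 in the mean of both (limma adjusted p = 0.0469), a call lost without control replicate 1 (0.408), siRNA2 replicate 1 (0.129) or siRNA2 replicate 2 (0.153), and 4 were not called. With all 7 probe sets averaged, Klf3 passed in the mean of both siRNAs (-0.21, limma adjusted p = 0.0349).

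Counted by probe set, 14 of 33 rose and 8 fell in the mean of both siRNAs, where 15.2% of all probe sets rose and 16.2% fell. Of the 14, 9 belonged to Klf6 and Klf7. Klf5 was the only one of these genes with probe sets called in both directions there, and its lower call, -0.28 on 1451739_at (limma adjusted p = 0.0413), was lost without control replicate 1 (0.377), siRNA2 replicate 1 (0.184) or siRNA2 replicate 2 (0.0777).

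The second question was whether the duplexes differed. The difference itself does not use the control arrays, but they enter the estimate of the spread. Klf2, Klf4, Klf5 and Klf6 differed between siRNA #2 and siRNA #1, each further from control with siRNA #2. The log2 difference, siRNA #2 minus siRNA #1, was -0.26 for Klf2 (SE 0.07, limma adjusted p = 0.0262), -0.25 for Klf4 (SE 0.05, limma adjusted p = 0.00652), 0.20 for Klf5 (SE 0.05, limma adjusted p = 0.0167) and 0.22 for Klf6 (SE 0.06, limma adjusted p = 0.0263). These are 2 members higher and 2 lower of 9, while 2.3% of all genes were higher and 6.18% lower. For these 4 genes the order of the group means was therefore the same or its mirror image, with siRNA #1 between control and siRNA #2. Adjusted over all probe sets, Klf4 on both of its probe sets and Klf5 on its brightest were called (0.0225, 0.0231 and 0.0452), and Klf2 and Klf6 were not (0.0797 and 0.0721). Both Klf4 calls were lost without siRNA1 replicate 1 (0.0586 and 0.176), siRNA2 replicate 1 (0.151 and 0.243) or siRNA2 replicate 2 (0.335 and 0.183). The Klf5 call was lost without any array other than siRNA1 replicate 2, the controls included, with limma adjusted p-values from 0.0753 to 0.490.

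The other members were not shown to differ between the duplexes. The 95% confidence interval of the difference was -0.14 to 0.21 for Klf7, 0.01 to 0.29 for Klf10, -0.19 to 0.01 for Klf9, -0.14 to 0.12 for Klf3 and -0.27 to 0.11 for Klf13. The interval of Klf10 lies above 0 and its arrays do not overlap, but it did not pass over all genes (0.15, limma adjusted p = 0.181), and it passed after quantile normalization (0.22, 0.0341) and centring on housekeeping genes (0.26, 0.0104). Calls between the duplexes rested on single arrays: 1 to 4 members were called when 1 array was left out. Klf2 was lost without siRNA1 replicate 1 (-0.13, limma adjusted p = 0.332) or siRNA2 replicate 1 (-0.20, 0.290), and Klf4 without siRNA2 replicate 2 (-0.22, 0.137). Klf6 was lost without siRNA2 replicate 1 (0.26, 0.131) or siRNA2 replicate 2 (0.18, 0.346). Klf5 was lost without siRNA1 replicate 1 (0.20, 0.0544), siRNA2 replicate 1 (0.24, 0.0686) or siRNA2 replicate 2 (0.17, 0.266). Scaling also moved the split, from 2 higher and 2 lower to 3 and 1 after quantile normalization, 0 and 2 after centring each array on its median, and 3 and 0 after centring on housekeeping genes. Among all genes called, the share higher with siRNA #2 was 27.1%, and it was 48.8%, 17.9% and 69.5% under these scalings.

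**Figure D3:**
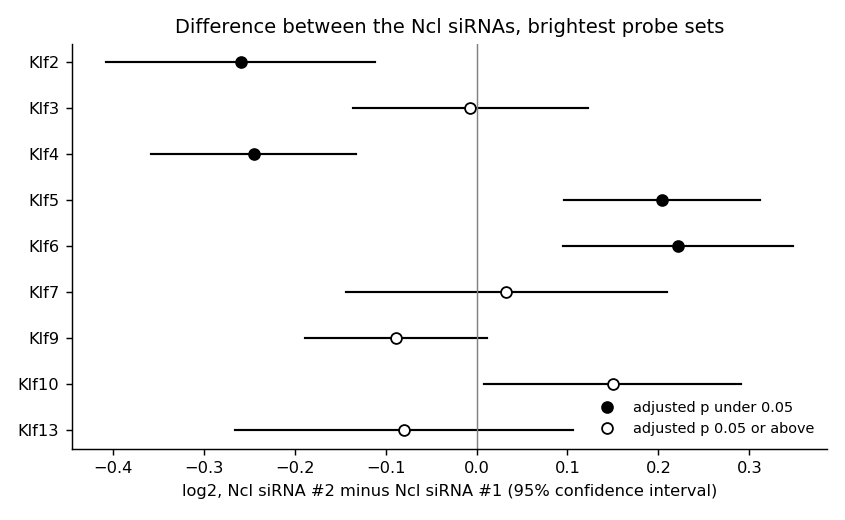
Log2 difference between Ncl siRNA #2 and Ncl siRNA #1 (horizontal axis, 95% confidence interval) for the brightest probe set of each Klf gene; filled points have an adjusted p under 0.05 over all genes. Klf2 and Klf4 lie left of 0 at -0.26 and -0.25, Klf5 and Klf6 right of it at 0.20 and 0.22, and the other 5 genes are open. After centring on the array median no Klf gene was called higher, and after centring on housekeeping genes none was called lower.

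Relatives of the 9 genes were read from lists written from general knowledge. Among 7 measured of 9 other Klf genes, 1 rose and 2 fell in the mean of both siRNAs, where 20.3% of all genes rose and 21.7% fell. Their median was -0.02, which was 0.06 after centring on housekeeping genes. Klf15, a regulator of glucose and amino acid metabolism, changed by -1.79 (SE 0.13), from 7.83 and 7.82 in the controls to 5.79 to 6.33 in the Ncl siRNA arrays. Klf12, a CtBP-binding repressor like Klf3, changed by -1.57 (SE 0.11), and by -0.80 when its 5 probe sets were averaged. Klf14, a Sin3-binding member, rose by 0.84 (SE 0.14). The Sp genes, whose proteins bind the same GC boxes, had 4 higher and 2 lower among 7 measured, with a median of 0.48. Sp5, a Wnt target, led with 1.49 (SE 0.16), although its control arrays differed at 6.20 and 7.08. Sp8 followed at 0.77, with dim control values of 4.74 and 5.08, below the medians of those arrays (5.74 and 5.73). Sp6 rose by 0.61 and was not called with its probe sets averaged (0.22, limma adjusted p = 0.103). Sp3, at 10.70 on both control arrays, rose by 0.48.

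Genes for proteins that work with Krüppel-like factors were then counted. Of 14 measured corepressors and coactivators, 4 rose and 5 fell, with a median of -0.11, beside 20.3% higher and 21.7% lower over all genes. The acetyltransferase gene Kat2b changed by -0.72 (SE 0.05) and Sin3a, the scaffold that Klf9, Klf10 and Klf13 recruit, by -0.58 (SE 0.06). Sin3b rose by 0.36 and Cited2, which binds the coactivators CBP and p300, by 0.69. Among 12 ligases and peptidases that act on these proteins, 4 rose and 3 fell, with a median of 0.12. With lists this short, nothing particular to them can be read from these counts or from those of the other Klf genes. Fbxw7, a substrate receptor for KLF2 and KLF5, rose by 1.07 (SE 0.06), Fbxo32 by 1.06 and Smurf1 by 0.67, and Atxn3 changed by -0.81 (-0.53 with its probe sets averaged).

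Genes of the naive circuit around Klf2, Klf4 and Klf5 were mostly lower. Pou5f1, Sox2, Nanog, Esrrb and Zfp42 are also among the stem cell markers counted above, so the counts of both lists are not independent. Of 17 genes, 11 fell and 3 rose in the mean of both siRNAs, with a median of -0.55, beside -0.05 over all genes, of which 21.7% fell and 20.3% rose. Tcl1, a cofactor of the kinase Akt, fell by 2.06 (SE 0.08), Prdm14 by 1.37, Tfcp2l1 by 1.33 (0.58 with its probe sets averaged) and Nr5a2 by 1.32. Between the duplexes, 12 of the 17 were lower with siRNA #2 and 0 higher, with a median of -0.23 beside -0.03 over all genes, of which 6.18% were lower and 2.3% higher. Nanog, for example, differed by -0.27 (SE 0.05, limma adjusted p = 0.00289), beside -0.26 for Klf2 and -0.25 for Klf4. Centring on housekeeping genes left 4 of the 17 lower, with a median of -0.11.

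Signals that act upstream of Klf genes had 11 of 20 measured members higher and 7 lower, with a median of 0.35. Over all genes, 20.3% were higher and 21.7% lower, which is also the background of the other counts against control in this paragraph. Socs3, the feedback inhibitor of LIF signalling, changed by -0.94 (SE 0.07), and by -0.31 on the probe sets left without those ending in _x_at or _s_at. In the FGF branch, Fgf4, which is also among the stem cell markers above, changed by -1.26. Fgfr2 rose by 1.10 (SE 0.10), or by 0.50 without the same probe sets. The TGF-beta receptor gene Tgfbr2, upstream of Klf10, rose by 1.30 (SE 0.13), and by 0.46 when its probe sets were averaged. Genes of the trophectoderm, the outer layer of the blastocyst, where Klf5 acts, had 9 of 10 higher and 0 lower in the mean of both siRNAs, with a median of 1.91. With siRNA #1 against control, 7 of the 10 were called higher. Krt18 and Krt8, keratins of simple epithelium, rose by 3.71 (SE 0.06) and 3.53 (SE 0.05), Gata3 by 2.90 and Eomes by 2.09. Between the duplexes 6 of these 10 were higher with siRNA #2, where 2.3% of all genes were higher. Genes of the primitive endoderm, the other early lineage outside the embryo proper, had 2 higher and 2 lower of 8, with a median of -0.13. The higher genes, Sox17 and Lama1, were not firm. With siRNA #1 alone 1 gene was called higher, and with siRNA #2 alone 0 were. After quantile normalization or centring each array on its median, 1 was higher in the mean of both. Sox17 rose by 0.62, which came to 0.04 under an alternative.

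**Figure D4:**
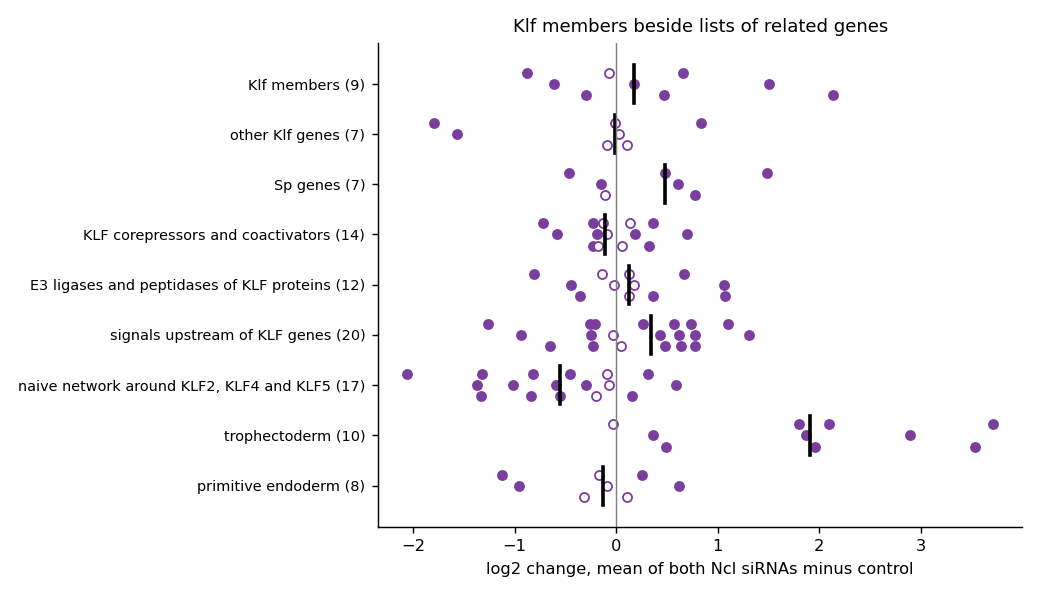
Log2 change in the mean of both Ncl siRNAs minus control (horizontal axis) for the 9 Klf members and for lists of related genes, with the number measured in brackets; each point is a gene, filled where its adjusted p was under 0.05, and the black bar is the list's median. The medians run from -0.55 for the naive network to 1.91 for the trophectoderm, and the Klf members spread from -0.88 to 2.13 around 0.17.

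The genes with the most similar profiles over the 6 arrays were found for Klf2, Klf4 and Klf5 by the root mean square difference of log2 values centred on each gene's own mean. For Klf2 these were Nipsnap1 (0.0241), Dguok (0.0335) and Hvcn1 (0.0359). For Klf4 they were Lgr4 (0.0286), Myo9a (0.0321) and Nampt (0.0322), and for Klf5 Kpna4 (0.0203), Grb10 (0.0371) and Itpkc (0.0408). Kpna4, for example, stood at 11.36 and 11.36 under control siRNA, at 11.76 and 11.74 under siRNA #1 and at 11.89 and 11.97 under siRNA #2. This step pattern is like that of Klf5, as the search selects for. The change of Kpna4 in the mean of both siRNAs, 0.48, came to 0.06 under an alternative. In 18 of 51 recomputations over the alternatives, at most 1 of the 3 genes was kept.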

How the data were processed

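The deposited log2 values appear to have been normalized between arrays by the authors, judged from array medians of 5.73 to 5.79. How this was done, and how background was corrected and probes summarised, is not given in the sources used here. Per the labels' protocols, RNA was extracted with RNeasy (Qiagen) and labelled with biotin by Affymetrix in vitro transcription. No scaling was added. Of 45101 probe sets, 34958 carried 1 symbol, 932 several and 9211 none, and those without a single symbol were left out of gene tests. The probe set with the highest mean over all 6 arrays stood for a gene. Group means were estimated jointly from the 6 arrays with limma 3.58.1 (R 4.3.3; 3 residual degrees of freedom) and a variance trend, and Benjamini-Hochberg adjustment ran over 18194 genes, or over 45037 probe sets for single probe sets. With 2 arrays per group the number of arrays limits the precision. The procedure was also run on simulated data with independent noise and few changed genes. That setting lacks the differences shared by the control arrays, so it does not bear on them.

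The members and lists were chosen with earlier results of these data known. The rule for named genes took all members, the 3 nearest profiles of Klf2, Klf4 and Klf5, and up to 4 called genes with the largest change per list. Summed levels are log2 of the sum of unlogged values. Alternatives were 3 scalings, averaged probe sets, no _x_at or _s_at probe sets, no dim genes, other variance models, only the arrays compared, a replicate block, array weights, an adjusted p under 0.01, and each array left out.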

Additional observations from a re-analysis of the deposited data

Results flagged for a closer look

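For 4 members the effects of the Ncl siRNAs differed from each other, by the test of siRNA #2 minus siRNA #1 in the limma model. The log2 difference was -0.26 for Klf2, -0.25 for Klf4, 0.20 for Klf5 and 0.22 for Klf6. In each case the change against control was larger with siRNA #2. Ncl itself differed by -0.01 between the siRNAs on its brightest probe set (limma adjusted p = 0.941). That is 1 of its 5 probe sets, and the difference between the siRNAs was not recomputed on the others, though the fall of Ncl depends on the probe set. Each of the 4 calls was lost when some single array was left out, as given with the comparison of the duplexes.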

How the results depend on the processing

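Of 639 recomputed changes of the 9 members, 590 kept their side of the threshold, 44 lost the call, 4 gained it and 1 called change reversed. Of 1320 for their probe sets, 1234 kept their side, 53 lost and 33 gained the call. Direction was compared only where a change was called in either fit, so uncalled changes that switched sign count as kept. Klf3 with siRNA #2 against control, for example, was -0.07 and reached 0.05 under an alternative. The reversal was Klf5 with siRNA #1 when its probe sets were averaged (-0.0667). Among other named genes, Laptm5 reversed without _x_at and _s_at probe sets (-0.19) and Sdha with averaged probe sets (-0.21). Against control, 6 to 8 members were called under every alternative with each siRNA. Without 1 array, the members called numbered 7 to 8 with siRNA #1, 6 to 8 with siRNA #2 and 7 to 8 in the mean of both. Between the siRNAs, the 4 members called became 2 with arrays centred on their median, 2 with averaged probe sets, 0 with variances without a trend, 1 at an adjusted p under 0.01, and 1 to 4 without 1 array. Of their probe sets, 4 were called between the siRNAs, 8 with centring on housekeeping genes, and 0 to 9 without 1 array. All genes called between the siRNAs numbered 1543, and 790 with averaged probe sets, 142 without a variance trend, 633 at an adjusted p under 0.01, and 451 to 4301 without 1 array. Centring on housekeeping genes shifted the median of all genes by 0.12 between the siRNAs and by 0.13 for siRNA #2 against control. The call of Klf9 was also lost without a variance trend, with siRNA #1 (limma adjusted p = 0.110) and in the mean of both (0.126).

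Arrays with the same replicate number did not deviate together (correlations 0.02, 0.00074 and 0.02). With the replicate number as a block, 8 members were called with each siRNA and in the mean of both, and 4 between the siRNAs, and 19, 19, 20 and 3 probe sets. Leaving out genes below the median signal gave no value for some dim genes, and fitting only the arrays compared was not run for the mean of both siRNAs. The cause of these shifts was not tested.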
